A study of Danio rerio with 30 samples.

Results

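Expression of Sox, Pax2 and Eya1 factors was followed in cells of the zebrafish lateral line. The set consisted of 8 named genes, sox2, sox3, sox4a, sox11a, sox21a, pax2a, pax2b and eya1. They were matched to Ensembl gene names ignoring case, or without the a or b suffix where the full name was absent. This gave 9 of the 32520 gene IDs in the count table, and the stems SOX4 and SOX21 took in 3 further IDs, which are counted apart. The table of names gives 1 symbol to both members of the PAX2, SOX11 and SOX4 pairs, so each ID is written with its last 5 digits and none is assigned to an a or b gene. An ID in full is ENSDARG000000 followed by those digits, which are 70913 for SOX2, 53569 for SOX3, 96389 for sox4a, 31664 for sox21a and 14259 for EYA1. The name list was not computed from measured values, but it was chosen with earlier results of these data known.

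The cells were mCherry-positive cells sorted from trypsin-dissociated larvae at 5 days post fertilization, and all 12 RNA-seq libraries carried the she:mCherry reporter. The 4 groups of 3 libraries were isl1a psi97 mutants 3 h after neomycin, their siblings 3 h after neomycin, mutants in homeostasis and siblings in homeostasis. isl1a encodes a LIM homeodomain transcription factor, and neomycin, given at 300 uM for 30 min, is an aminoglycoside that kills lateral line hair cells. The labels do not state the genotypes that the siblings comprise. Another 18 ATAC-seq samples were not analysed here.

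Neuromasts, the sense organs of the lateral line, hold mechanosensory hair cells surrounded by support cells, which divide and differentiate to replace lost hair cells. Eya1 is a transcriptional coactivator and phosphatase that acts in the early steps of placode development. SoxB1 proteins such as Sox2 and Sox3 maintain sensory and neural progenitors, SoxB2 proteins such as Sox21 largely act as repressors, and SoxC proteins such as Sox4 and Sox11 are activators linked to differentiation. Pax2 is a paired-box factor of the otic and lateral line lineages.

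The libraries held between 23918226 and 30354161 counts in genes. ISL1, the ID taken as isl1a, had 0 to 35 counts in the 3 mutant libraries at 3 h, against 3996 to 6634 in the sibling libraries at 3 h. In homeostasis it had 0 or 1 counts in mutants, against 3351 to 5607 in siblings. The library of sibling replicate 2 at 3 h stood apart, with a mean correlation to its own group of 0.925, the lowest of the 12, and the PAX2, SOX2, SOX3 and sox21a values that move most with it are also given without it. Summed hair cell markers, 29 IDs of which none was at 0, ranged from 1876 to 3401 CPM (counts per 1000000 counts of the scaled library) in mutants at 3 h, against 3396 to 9971 CPM in siblings at 3 h, where replicate 2 was the highest. In homeostasis they ranged from 16930 to 21620 CPM in mutants, against 35040 to 41960 CPM in siblings. Among markers of other cells, the summed erythrocyte list (7 IDs) ranged from 1050 to 1485 CPM in homeostasis mutants against 119 to 209 CPM in homeostasis siblings. The skeletal muscle list (9 IDs, none at 0) ranged from 144 to 249 CPM in homeostasis mutants against 44.6 to 63.7 CPM in homeostasis siblings, with 6 IDs called higher in mutants. The leukocyte list (8 IDs, none at 0) ranged from 198 to 429 CPM in siblings at 3 h against 35.7 to 86.9 CPM in homeostasis siblings, with 7 IDs called higher at 3 h. The liver and exocrine pancreas list (8 IDs) ranged from 763 to 1150 CPM in mutants at 3 h against 2442 to 8598 CPM in siblings at 3 h. Summed mantle and anteroposterior support cell markers (16 IDs) had 3523 to 3778 CPM in homeostasis mutants and 2526 to 3085 CPM in homeostasis siblings. Of these IDs, 2 were called higher in mutants and 1 lower. Pan-neuromast markers (15 IDs, 0 called) had 6448 to 7652 CPM and 4883 to 5882 CPM in these groups. Young hair cell and progenitor markers (16 IDs, 3 called lower) had 714 to 830 CPM in mutants and 1116 to 1341 CPM in siblings. Central support cell markers overlapped. At 3 h, mantle and anteroposterior markers had 5134 to 6004 CPM in mutants and 2807 to 5858 CPM in siblings, with 3 IDs called higher in mutants and 3 lower. Pan-neuromast markers had 8640 to 11480 CPM in mutants and 4429 to 11470 CPM in siblings at 3 h. Of these 15 IDs, 1 was called higher in mutants at 3 h and 0 lower. Their median log2 fold change there was -0.23, so the sum and the median differed in direction. The mantle and pan-neuromast lists share cldnb and CXCR4. In the pan-neuromast list epcam and cldnb were the largest, with means of 3691 and 1333 CPM in homeostasis mutants. At 3 h their means were 5512 and 2811 CPM in mutants, against 3312 and 1954 CPM in siblings. Neuron markers (13 IDs) had 216 to 247 CPM in mutants and 151 to 208 CPM in siblings at 3 h, and overlapped between genotypes in homeostasis. Of 11 tested neuron IDs, 1 was called higher in homeostasis mutants (median log2 fold change 0.89). After neomycin in siblings 3 rose and 1 fell (median 1.00). The largest, rtn1a, averaged 145.5 CPM in mutants at 3 h. The part of these lists in any result, those for SOX4 and SOX11 included, was not tested. In bulk samples, fewer cells of a type and less RNA per cell cannot be told apart.

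After neomycin, both PAX2 IDs fell and SOX4 (…04588) rose in either genotype. SOX11 (…95743) rose in siblings, a call lost in 11 of the 12 fits without 1 library and under other scalings. In homeostasis both PAX2 IDs were lower in mutants than in siblings, and SOX11 (…95743) and SOX4 (…04588) were higher. At 3 h PAX2 (…28148) and SOX21 were lower in mutants, while EYA1 passed in no comparison. Of the 9 IDs, 8 passed the filter on low counts and were tested among 22000 genes, together with the 3 further IDs. A gene is called where the quasi-likelihood test of edgeR gave a p under 0.05 after the adjustment of Benjamini and Hochberg for all 22000, and every adjusted p below comes from it. In homeostasis, 3 of the 8 were called between mutants and siblings, 1 higher and 2 lower, where 3.57% of all genes were called. At 3 h after neomycin 1 of the 8 was called, lower in mutants, where 9.78% of all genes were called. The response to neomycin, 3 h against homeostasis, was called for 3 of the 8 in siblings, where 22% of all genes were called, and for 2 of the 8 in mutants, where 16.5% were called. These counts rest on few libraries. In homeostasis 1 of the 8 was called without any 1 of the 6 homeostasis libraries. The genes called were then 295 to 502, against 785 with all 12 libraries. At 3 h the 1 call, PAX2 (…28148), was lost without mutant replicate 1 or 3, where 943 and 896 genes were called, against 2151. In mutants the neomycin response was called for 5 of the 8 without sibling replicate 2 at 3 h. That fit called 6147 genes in this comparison, against 3634 with all 12 libraries. With only the 3 h libraries in the fit, edgeR called 625 genes and 0 of the 8 between genotypes at 3 h. In it 1 of the 8 had an unadjusted p under 0.05, a share that was not counted over all genes. Libraries of the same replicate number deviated together at 3 h, and with that number as a block within the 3 h libraries, an alternative chosen after the data had been seen, 4112 genes and 1 of the 8 were called at 3 h. The CPM of the 2 groups did not overlap for 4 of the 8 in homeostasis, 2 at 3 h, 4 between times in siblings and 5 between times in mutants, where 29.9%, 26%, 34.7% and 43.5% of all genes did not overlap. The median log2 fold change of the 8 was 0.03 in homeostasis and -0.46 at 3 h, where that of all genes was 0.01 and -0.14.

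**Figure D1:**
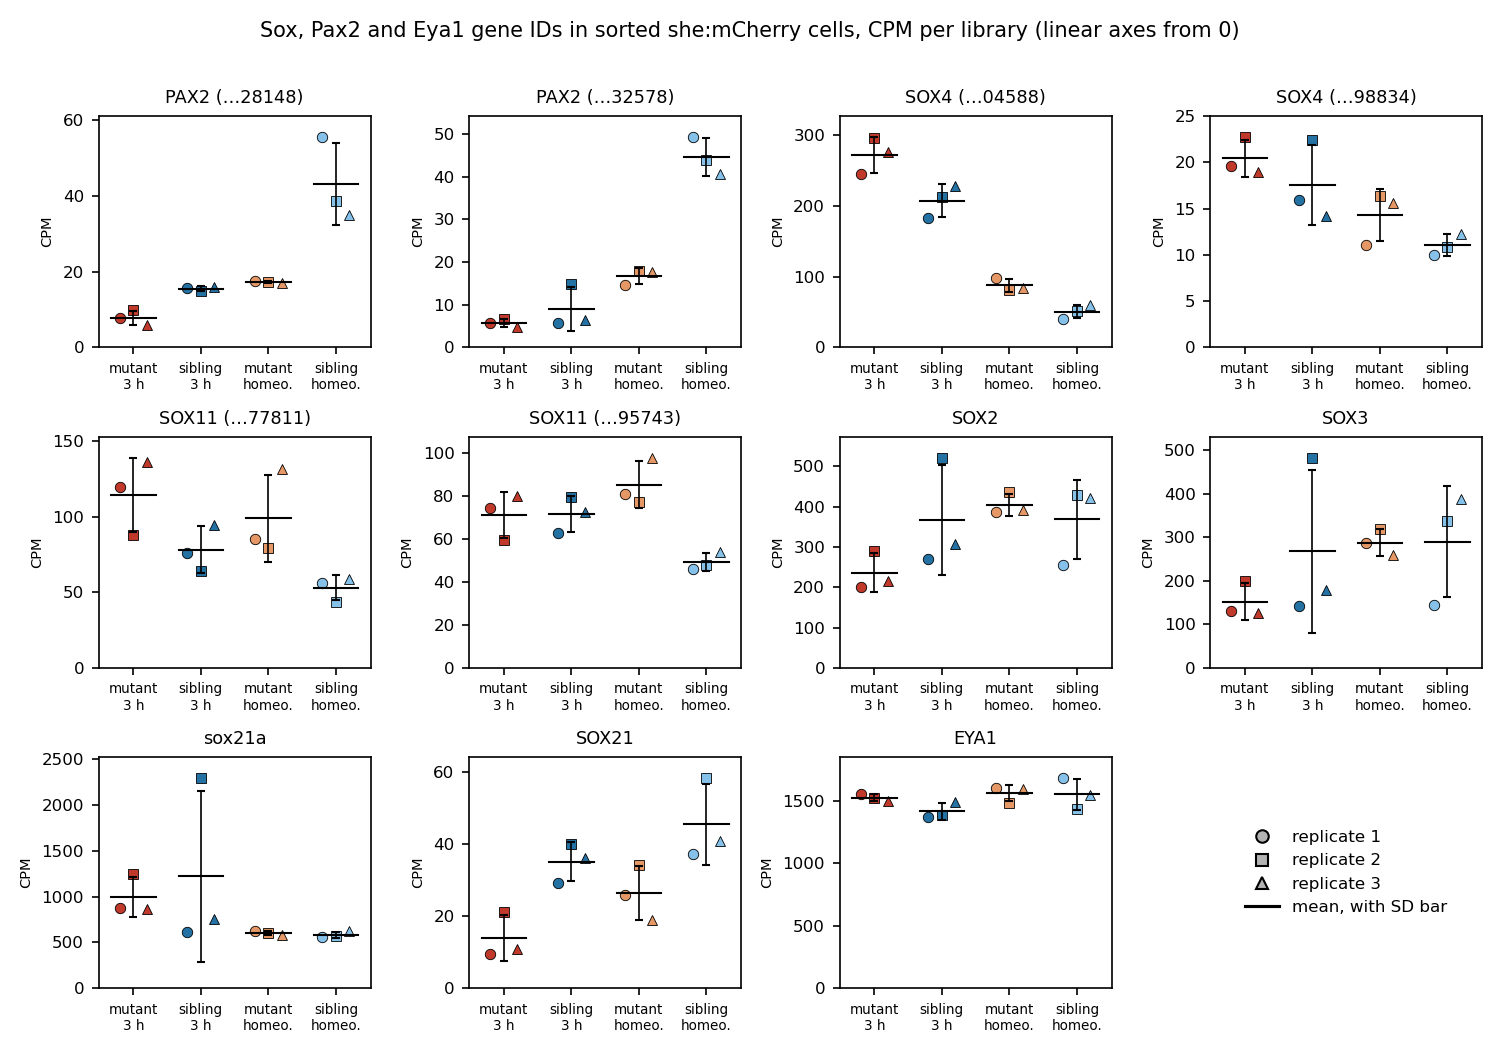
CPM of the 11 tested IDs in each of the 12 libraries, on linear axes that start at 0, with points for replicates 1 to 3, a line for the mean and a bar for the SD. Both PAX2 IDs are highest in homeostasis siblings, SOX4 (…04588) is high in both groups at 3 h, EYA1 is at a like level in all 4 groups, and sibling replicate 2 at 3 h has the highest SOX2, SOX3 and sox21a values.

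The PAX2 pair was lower in mutants than in siblings in homeostasis and lower at 3 h than in homeostasis in either genotype, and both IDs passed the test in each of these 3 comparisons. PAX2 (…28148) had 7.66, 9.76 and 5.97 CPM in mutants at 3 h, against 15.7, 14.9 and 15.9 CPM in siblings at 3 h. In homeostasis it had 17.6, 17.1 and 17.0 CPM in mutants, against 55.5, 38.7 and 35.1 CPM in siblings. Mutant and sibling values did not overlap at either time, and the 3 h siblings lay just under the homeostasis mutants. PAX2 (…32578) had 5.62, 6.56 and 4.74 CPM in mutants at 3 h, against 5.63, 14.8 and 6.43 CPM in siblings at 3 h. Homeostasis libraries held 14.6, 17.9 and 17.8 CPM in mutants, against 49.3, 43.9 and 40.5 CPM in siblings. Its mutant and sibling values overlapped at 3 h and stood apart in homeostasis, and the sibling library with 14.8 CPM at 3 h was replicate 2.

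In homeostasis the log2 fold change of mutants over siblings was -1.32 ± 0.22 (SE) for PAX2 (…28148), with an adjusted p of 0.00679. That of PAX2 (…32578) was -1.41 ± 0.31, with an adjusted p of 0.0276, but the call was lost when any 1 of the 6 homeostasis libraries was left out (adjusted p 0.0623 to 0.123). At 3 h, PAX2 (…28148) was lower in mutants by a log2 fold change of -0.99 ± 0.22 (adjusted p = 0.0166), and the call was lost without mutant replicate 1 at 3 h (adjusted p = 0.0664) or replicate 3 (adjusted p = 0.0857). It was also lost when only the 3 h libraries entered the fit (adjusted p = 0.103). PAX2 (…32578) was not called at 3 h, with a log2 fold change of -0.66 and a 95% interval of -1.35 to 0.02 (adjusted p = 0.207), and of -0.09 without sibling replicate 2 at 3 h (adjusted p = 0.801).

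Both IDs also fell after neomycin in either genotype. In siblings, 3 h over homeostasis, it was -1.47 ± 0.22 for PAX2 (…28148) and -2.32 ± 0.32 for PAX2 (…32578) on the log2 scale, with adjusted p of 0.000615 and 0.000349. Without sibling replicate 2 at 3 h the fall of PAX2 (…32578) in siblings was -2.93 (adjusted p = 1.73e-06). In mutants it was -1.15 ± 0.23 and -1.57 ± 0.32, with adjusted p of 0.00422 and 0.0053. These 4 calls held when any 1 of the 12 libraries was left out. The difference between both responses did not pass the test for PAX2 (…32578), at 0.75 on the log2 scale with a 95% interval of -0.21 to 1.71 (adjusted p = 0.656). Without sibling replicate 2 at 3 h it was 1.35 and passed (adjusted p = 0.0275), a smaller fall in mutants than in siblings.

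Hair cell markers moved in the same comparisons: of the 29 IDs, 5 were called lower in mutants in homeostasis and 7 at 3 h, and 22 were called lower at 3 h in siblings and 20 in mutants. The level of both PAX2 IDs together was therefore also set against the summed hair cell markers of the same library, a ratio chosen after the data had been seen. Per 1000 hair cell marker CPM, PAX2 stood at 5.64, 4.798 and 5.71 CPM in mutants at 3 h, against 5.42, 2.98 and 6.58 in siblings at 3 h. In homeostasis it stood at 1.78, 1.62 and 2.06 in mutants, against 2.53, 2.36 and 1.80 in siblings. The genotypes overlapped at both times, and the ratio was higher in every 3 h library than in any homeostasis library. The mutant ratio was 0.820 times that of siblings in homeostasis (two-sided exact permutation p = 0.2) and 1.13 times at 3 h (exact permutation p = 0.8), or 0.898 times at 3 h without sibling replicate 2. At 3 h the ratio was 2.15 times that of homeostasis in siblings, or 2.71 times without sibling replicate 2, and 2.97 times in mutants, each with an exact permutation p of 0.1, which is the smallest that 3 against 3 libraries can give.

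The size of that ratio between times turned on 1 marker. pvalb8, a parvalbumin gene, held 38.3% to 47.7% of the summed hair cell markers in mutants at 3 h and 43.2% to 51.3% in siblings at 3 h, against 69.1% to 70.4% in homeostasis mutants and 67.6% to 69.2% in homeostasis siblings. Of the other 28 marker IDs, s100t was the largest. It averaged 588.1 of 1436 CPM in mutants at 3 h, against 1535 of 2984 CPM in siblings at 3 h. In homeostasis s100t averaged 2517 of 5703 CPM in mutants, against 5707 of 12435 CPM in siblings. Per 1000 CPM of these 28 IDs, PAX2 stood at 9.68, 9.18 and 9.25 CPM in mutants at 3 h, against 9.84, 6.13 and 11.6 in siblings at 3 h. In homeostasis it stood at 6.01, 5.37 and 6.64 in mutants, against 8.04, 7.29 and 5.85 in siblings. Between times the sibling libraries then overlapped and the mutant libraries did not. The ratio at 3 h was 1.27 times that of homeostasis in siblings (exact permutation p = 0.3), or 1.53 times without sibling replicate 2, and 1.56 times in mutants (exact permutation p = 0.1). Mutants stood at 1.06 times the siblings at 3 h (exact permutation p = 1), or 0.877 times without sibling replicate 2, and at 0.855 times in homeostasis (exact permutation p = 0.3). These 8 comparisons and 4 for SOX2 made 12, over which no exact permutation p adjusted by Benjamini-Hochberg was below 0.2.

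**Figure D2:**
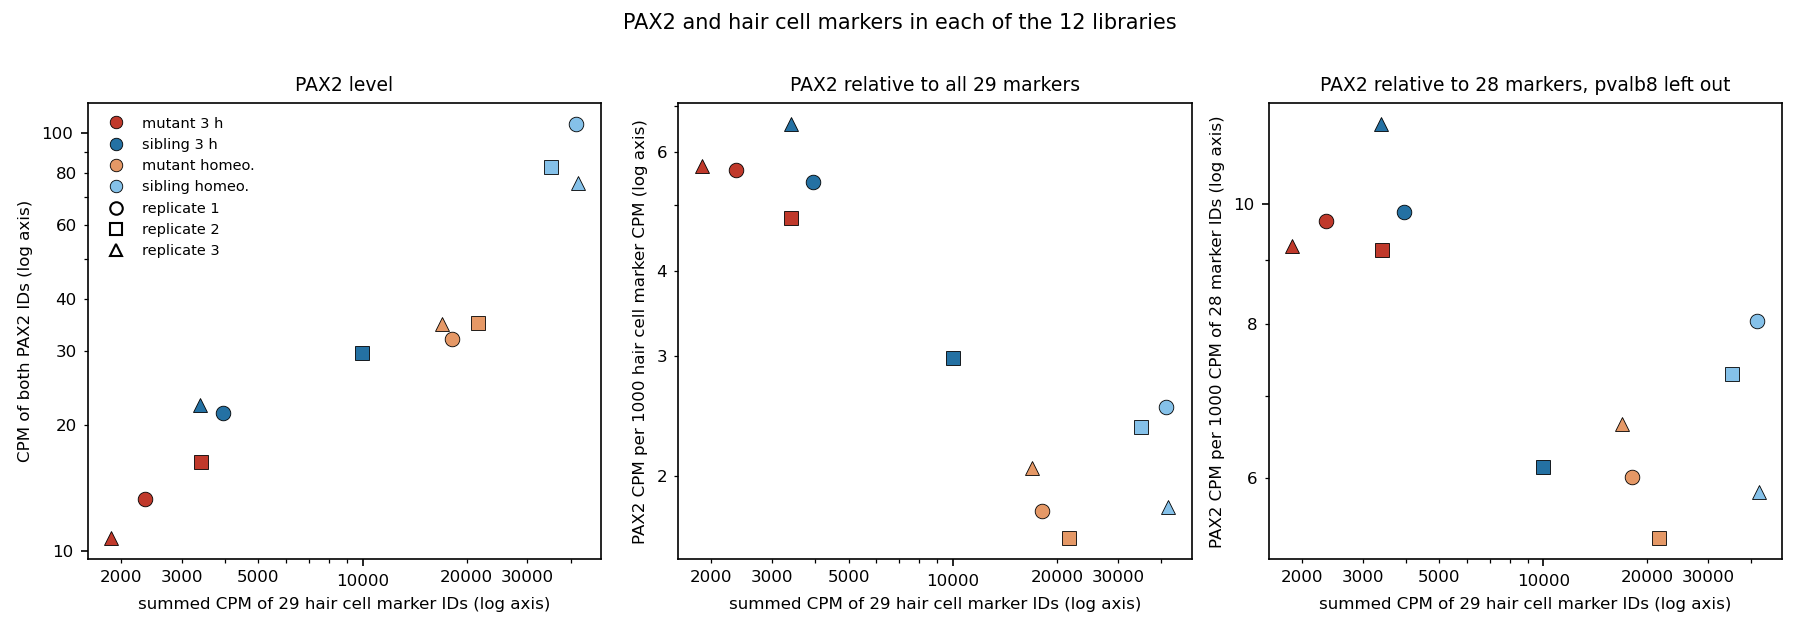
CPM of both PAX2 IDs (left), PAX2 per 1000 CPM of 29 hair cell marker IDs (middle) and PAX2 per 1000 CPM of 28 of them without pvalb8 (right), each against the summed CPM of the 29 IDs in the 12 libraries on log axes, with colour for the group and shape for the replicate. PAX2 is lowest where hair cell markers are lowest, the middle values are 2.98 to 6.58 at 3 h and 1.62 to 2.53 in homeostasis, and the right-hand values of the times overlap, at 6.13 to 11.6 at 3 h and 5.37 to 8.04 in homeostasis.

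Among the SoxC IDs, SOX4 (…04588) had the largest rise of the 11 IDs after neomycin, in siblings as in mutants. The ID named sox4a in the name table had 0 counts in all 12 libraries, which allows a level of up to 0.0962 to 0.131 CPM per library (3 counts), and it was not tested. Whether another SOX4 ID is sox4a in another annotation is not known here. SOX4 (…04588), one of the further IDs, had 244.9, 295.1 and 275.5 CPM in mutants at 3 h, against 182.3, 212.1 and 227.3 CPM in siblings at 3 h. The values in homeostasis were 97.5, 80.3 and 84.2 CPM in mutants, against 40.4, 51.7 and 59.4 CPM in siblings. All 6 libraries at 3 h were above all 6 in homeostasis, and at each time the mutants were above the siblings without overlap. The level at 3 h was 4.104 times that of homeostasis in siblings, a log2 fold change of 2.04 ± 0.19 with an adjusted p of 1.77e-05. In mutants it was 3.11 times, a log2 fold change of 1.64 ± 0.19 with an adjusted p of 0.000137. Both calls held without any 1 of the 12 libraries, and the difference between the responses was not called (-0.40, 95% interval -0.96 to 0.16).

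Between genotypes, SOX4 (…04588) was higher in mutants in homeostasis by a log2 fold change of 0.79 ± 0.19 (adjusted p = 0.0346). That call was lost without any 1 of the 3 mutant homeostasis libraries, sibling homeostasis replicate 1 or 2, or mutant replicate 1 or 3 at 3 h (adjusted p 0.0512 to 0.156), and with no filter on low counts (adjusted p = 0.0508). At 3 h the difference was 0.39, with a 95% interval of -0.01 to 0.79, and was not called (adjusted p = 0.198). SOX4 (…98834) ranged from 19.0 to 22.8 CPM in mutants at 3 h and from 14.2 to 22.5 CPM in siblings at 3 h. In homeostasis it ranged from 11.1 to 16.3 CPM in mutants and from 10.04 to 12.3 CPM in siblings. It was called in none of the comparisons, and its log2 fold change at 3 h over homeostasis was 0.66 in siblings and 0.51 in mutants, with adjusted p of 0.0535 and 0.157. The sibling value passed with total counts (adjusted p = 0.0428), in DESeq2 (adjusted p = 0.0271), with the replicate number as a block (adjusted p = 0.0421) and without sibling replicate 3 at 3 h (adjusted p = 0.0378), and it was 0.40 without sibling replicate 2 (adjusted p = 0.178). The share of SOX4 counts from (…04588), not corrected for length, was 93.0% ± 0.5 in mutants and 92.2% ± 1.9 in siblings at 3 h, against 85.7% ± 3.5 in mutants and 81.9% ± 1.5 in siblings in homeostasis (SD, n = 3 each).

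Of the SOX11 IDs, 1 was called, higher in mutants than in siblings in homeostasis, and higher at 3 h than in homeostasis in siblings. SOX11 (…95743) had 80.8, 77.4 and 98.0 CPM in mutants in homeostasis, against 45.9, 47.8 and 54.0 CPM in siblings. At 3 h it had 74.7, 59.4 and 79.9 CPM in mutants, against 63.1, 79.6 and 72.7 CPM in siblings. The homeostasis groups stood apart, the 3 h groups overlapped throughout, and the homeostasis siblings were below the other 9 libraries. The log2 fold change of mutants over siblings was 0.79 ± 0.18 in homeostasis (adjusted p = 0.0294), and leaving out any 1 of the 6 homeostasis libraries ended that call (adjusted p 0.0662 to 0.155). At 3 h it was -0.01, with a 95% interval of -0.39 to 0.38, and its sign turned with the scaling of libraries. The response to neomycin was 0.54 ± 0.18 in siblings (adjusted p = 0.0453), a call that was kept only without mutant replicate 2 at 3 h and lost without any 1 of the other 11 libraries (adjusted p 0.0515 to 0.173). It was also lost with another scaling of libraries, at 0.0536 for size factors by median of ratios and 0.0985 for total counts. The same held with no filter (0.46, adjusted p = 0.142) and with only the sibling libraries in the fit (0.52, adjusted p = 0.179). In mutants the response was -0.26 ± 0.18 (adjusted p = 0.379), and the difference between the responses was -0.80 ± 0.25, with an unadjusted p of 0.00732 and an adjusted p of 0.342.

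SOX11 (…77811) had 85.4, 79.5 and 131.8 CPM in mutants in homeostasis, against 56.3, 43.6 and 58.9 CPM in siblings. At 3 h it had 119.6, 87.9 and 136.2 CPM in mutants, against 75.8, 63.7 and 94.7 CPM in siblings. The homeostasis groups stood apart and those at 3 h overlapped in 1 mutant library. The log2 fold change in homeostasis was 0.90 ± 0.25 and just missed the threshold (adjusted p = 0.0679), while leaving out sibling replicate 2 at 3 h brought it past (adjusted p = 0.0321). It also passed in DESeq2 (adjusted p = 0.0222), with the replicate number as a block (adjusted p = 0.0108) and with only the homeostasis libraries in the fit (adjusted p = 0.0273). It did not pass under the other scalings or with no filter. At 3 h the log2 fold change was 0.55, with a 95% interval of 0.02 to 1.09 (adjusted p = 0.176). With the replicate number as a block it passed at 3 h over the 12 libraries (adjusted p = 0.0442) and missed within the 3 h libraries (adjusted p = 0.0726), and each mutant library was above the sibling library of its number. The share of SOX11 counts from this ID, not corrected for length, was 61.4% ± 1.7 in mutants at 3 h, against 51.9% ± 6.5 in siblings at 3 h, and 53.1% ± 3.7 in homeostasis mutants against 51.7% ± 3.7 in homeostasis siblings (SD, n = 3 each).

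The SoxB1 pair was not called in any comparison. SOX2, which marks support cells and progenitors, had 200.6, 290.8 and 215.9 CPM in mutants at 3 h, against 269.3, 522.0 and 308.1 CPM in siblings at 3 h. Homeostasis libraries held 385.6, 436.6 and 391.9 CPM in mutants, against 254.8, 428.6 and 421.6 CPM in siblings. The 3 h mutants were below the homeostasis mutants without overlap, and sibling replicate 1 in homeostasis was the low library of its group. The log2 fold change at 3 h over homeostasis was -0.78 ± 0.28 in mutants (adjusted p = 0.0754) and -0.01 in siblings (95% interval -0.60 to 0.59), or -0.40 in siblings without replicate 2 at 3 h. It passed in mutants without sibling replicate 2 at 3 h (-0.80, adjusted p = 0.0101), without sibling replicate 1 at 3 h (adjusted p = 0.0495) or without sibling homeostasis replicate 1 (adjusted p = 0.0484). Over all 12 libraries it passed in mutants with total counts (-0.87, adjusted p = 0.0101) and with the replicate number as a block (-0.81, adjusted p = 0.0162). With only the mutant libraries in the fit it passed too (-0.80, adjusted p = 0.00407). It did not pass with size factors by median of ratios, with no filter or in DESeq2. Mutants over siblings came to -0.64 at 3 h, with a 95% interval of -1.23 to -0.04 (adjusted p = 0.165), to -0.29 at 3 h without sibling replicate 2, and to 0.14 in homeostasis (-0.46 to 0.73).

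SOX3, the close relative of SOX2, had 130.1, 200.3 and 125.0 CPM in mutants at 3 h, against 140.9, 483.2 and 177.7 CPM in siblings at 3 h. In homeostasis it had 286.1, 318.8 and 258.8 CPM in mutants, against 145.3, 337.3 and 387.9 CPM in siblings. Sibling replicate 2 at 3 h was the highest of the 12 libraries for SOX2 as for SOX3, and the 3 h mutants were again below the homeostasis mutants without overlap. Across the 12 libraries the pair had the smallest distance of any 2 of the 11 IDs, a root mean square difference of 0.26 in centred log2 CPM. The log2 fold change of SOX3 in mutants at 3 h over homeostasis was -0.92 ± 0.44 (adjusted p = 0.19), and -0.94 without sibling replicate 2 at 3 h, where it passed (adjusted p = 0.0343). With only the mutant libraries in the fit it was -0.94 and passed (adjusted p = 0.0043). It did not pass under the other scalings, no filter, DESeq2 or the block. In siblings it was -0.12 (95% interval -1.07 to 0.83), and -0.91 without sibling replicate 2 at 3 h. Mutants over siblings at 3 h came to -0.82 (-1.77 to 0.14), and to -0.07 without that library. The difference between the responses was -0.80 (-2.15 to 0.54), and -0.03 without it. In homeostasis mutants over siblings came to -0.01 (-0.96 to 0.94).

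Central support cell markers varied with SOX2 over libraries. Their sum, over 12 IDs without ISL1 and without the genes described here, was 2563, 4062 and 2682 CPM in mutants at 3 h, against 3192, 6404 and 3472 CPM in siblings at 3 h. In homeostasis it was 4515, 5948 and 4068 CPM in mutants, against 3718, 6370 and 6056 CPM in siblings. Replicate 2 was the highest of its group in each of the 4 groups, and sibling homeostasis replicate 1 was low as it was for SOX2. Within the sum, cbln20 averaged 606.1 of 3102 CPM in mutants at 3 h, against 1307 of 4356 CPM in siblings at 3 h. In homeostasis cbln20 averaged 1542 of 4844 CPM in mutants, against 1906 of 5381 CPM in siblings. Set against that sum, a ratio chosen after the data had been seen, SOX2 stood at 78.3, 71.6 and 80.5 per 1000 CPM in mutants at 3 h, against 84.4, 81.5 and 88.7 in siblings at 3 h. In homeostasis it stood at 85.4, 73.4 and 96.3 in mutants, against 68.5, 67.3 and 69.6 in siblings. The ratio was 1.23 times that of siblings in homeostasis mutants and 0.904 times in mutants at 3 h, with groups that did not overlap (two-sided exact permutation p = 0.1 each, the smallest possible). At 3 h over homeostasis it was 1.24 times in siblings (exact permutation p = 0.1) and 0.907 times in mutants (exact permutation p = 0.4). Per 1000 CPM of the same sum, SOX3 ranged from 46.6 to 50.8 in mutants at 3 h, against 44.1 to 75.4 in siblings at 3 h. In homeostasis SOX3 ranged from 53.6 to 63.6 in mutants, against 39.1 to 64.1 in siblings. The SOX3 ratio thus overlapped between genotypes at both times. Neither ratio was taken without cbln20.

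**Figure D3:**
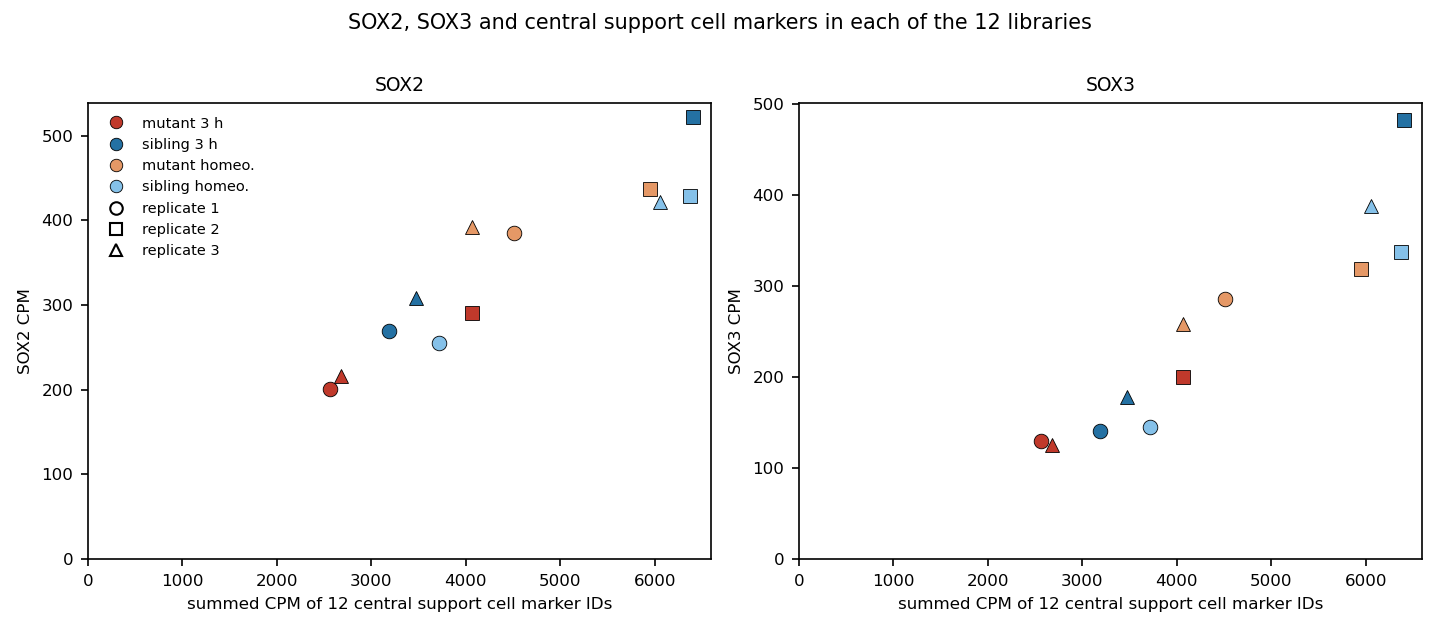
CPM of SOX2 (left) and SOX3 (right) against the summed CPM of 12 central support cell marker IDs in the 12 libraries, on linear axes that start at 0, with colour for the group and shape for the replicate. The low sums and low SOX2 values of 3 h mutant replicates 1 and 3 and the high ones of sibling replicate 2 at 3 h lie at the ends of 1 band of points.

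The SoxB2 IDs differed from each other. sox21a had 879.5, 1249.8 and 868.0 CPM in mutants at 3 h, against 612.0, 2293.0 and 760.7 CPM in siblings at 3 h. Homeostasis libraries held 624.5, 603.2 and 581.8 CPM in mutants, against 558.4, 568.3 and 623.7 CPM in siblings. The homeostasis libraries lay close together, all 3 mutants at 3 h were above all homeostasis libraries, and the sibling libraries at 3 h reached from below to far above them. At 3 h over homeostasis its log2 fold change was 1.07 ± 0.39 in siblings, which missed the threshold (adjusted p = 0.0699), as did 0.73 ± 0.39 in mutants (adjusted p = 0.245). Without sibling replicate 2 at 3 h it was 0.19 in siblings, and in mutants 0.71 with an adjusted p of 0.00357. The sibling value passed without sibling replicate 1 at 3 h (1.33, adjusted p = 0.0155) or replicate 3 (1.32, adjusted p = 0.0369). It also passed with total counts (0.88, adjusted p = 0.0458) and in DESeq2 (1.04, adjusted p = 0.035). It did not pass with size factors by median of ratios, no filter, the block or only the sibling libraries. The mutant value passed with only the mutant libraries in the fit (0.71, adjusted p = 0.00669). The difference between mutants and siblings at 3 h was -0.29 (95% interval -1.13 to 0.55), and 0.55 without sibling replicate 2 (adjusted p = 0.0517). In the gene table of another assembly sox21a overlaps drc2, a protein-coding gene, and reads of the 2 cannot be told apart by strand. The same limit holds for long noncoding RNA genes there, of which sox2, sox3, sox11b and sox21b each overlap 1 and pax2b overlaps 2.

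SOX21 (…08540), a further ID, had 9.63, 21.3 and 11.03 CPM in mutants at 3 h, against 29.4, 40.01 and 36.3 CPM in siblings at 3 h. In homeostasis it had 26.0, 34.2 and 19.1 CPM in mutants, against 37.2, 58.5 and 41.0 CPM in siblings. Mutants were below siblings without overlap at both times. The log2 fold change was -1.33 ± 0.32 at 3 h (adjusted p = 0.0214), a call lost without mutant replicate 1 at 3 h (adjusted p = 0.095), without replicate 3 (adjusted p = 0.102) or with only the 3 h libraries in the fit (adjusted p = 0.0789). In homeostasis it was -0.79 ± 0.31 and was not called (adjusted p = 0.226). At 3 h over homeostasis in mutants it was -0.92 and was not called, but it passed with total counts (adjusted p = 0.0282), in DESeq2 (adjusted p = 0.0405), with the replicate number as a block (adjusted p = 0.00874), with only the mutant libraries in the fit (adjusted p = 0.0426), and without mutant replicate 2 (adjusted p = 0.0123) or sibling replicate 2 (adjusted p = 0.0314) at 3 h.

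EYA1 had 1553, 1522 and 1499.6 CPM in mutants at 3 h, against 1368, 1386 and 1493 CPM in siblings at 3 h. Homeostasis libraries held 1607, 1486 and 1594 CPM in mutants, against 1683, 1432 and 1544 CPM in siblings. At 3 h the mutants were just above the siblings, and the other groups overlapped. None of its fold changes was called, and its 95% intervals were the narrowest of the 11 IDs. On the log2 scale they reached from -0.23 to 0.45 for mutants over siblings at 3 h, from -0.33 to 0.35 in homeostasis, from -0.47 to 0.21 for 3 h over homeostasis in siblings and from -0.38 to 0.31 in mutants.

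**Figure D4:**
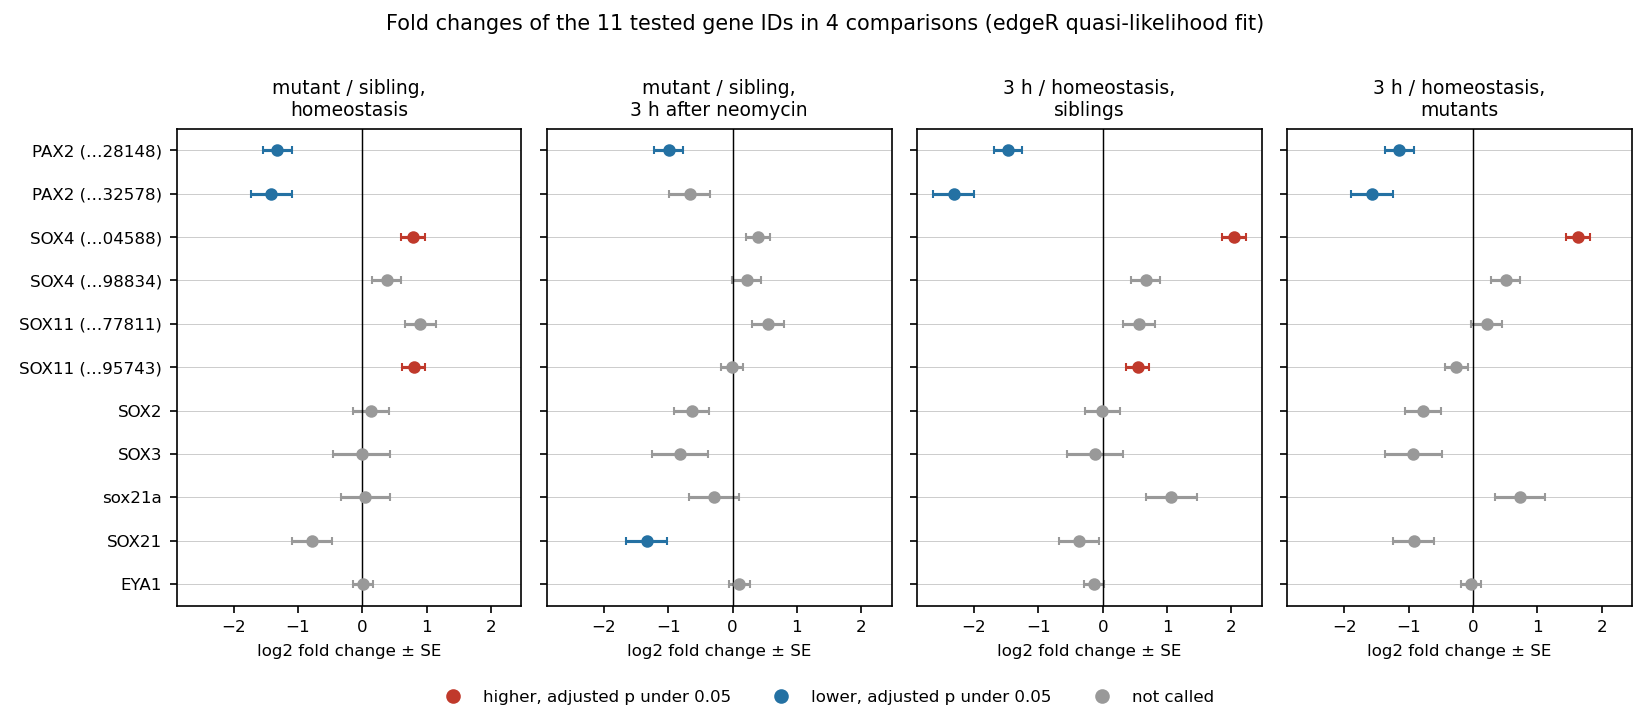
Log2 fold changes with SE of the 11 tested IDs in 4 comparisons, with red for higher and blue for lower at an adjusted p under 0.05 and grey for not called. Both PAX2 IDs are negative in all 4 panels, SOX4 (…04588) reaches 2.04 and 1.64 in the neomycin panels, and EYA1 stays between -0.13 and 0.11.

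A genotype contrast and a neomycin contrast that use the same group share its 3 libraries. No ID of the 11 was called for the difference between both responses to neomycin, where 0.105% of all genes were called, and DESeq2 also called 0. Without sibling replicate 2 at 3 h, 1 of the 8 was called, PAX2 (…32578), where 190 genes were called, against 23 with all 12 libraries. With all 12 libraries the smallest unadjusted p of the quasi-likelihood test among the 11 was 0.00732, for SOX11 (…95743) (adjusted p = 0.342). Fitted differences were negative for 8 of the 11. The median over all genes was -0.14, so a negative sign was also the more frequent over all genes.

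For each ID called in at least 1 comparison, the 3 genes with the closest pattern were taken from a filtered set of tested genes with a symbol. The measure was the root mean square difference of centred log2 CPM over the 12 libraries. Closer genes outside that set would not be listed. For PAX2 (…32578) these were cdc14aa (0.20), cfap53 (0.21) and ATP2B1 (0.23), which is among the hair cell markers. For PAX2 (…28148) they were HSD3B7 (0.21), rheb (0.23) and dnaaf2 (0.25), and for SOX4 (…04588) SSB (0.21), FTSJ3 (0.22) and cd99 (0.26). SOX11 (…95743) was closest to IRX1 (0.15), HOXA3 (0.17) and GPR63 (0.18). SOX21 (…08540) was closest to IGFBP5 (0.21), CDO1 (0.29) and stoml3a (0.29). Within the pairs, the distance was 0.31 for SOX11, 0.52 for PAX2 and 0.70 for SOX4.

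The relatives and partners of these factors were taken from lists of other Sox, Pax, homeobox, Eya, Dach, placode and otic factors and of Notch and Atoh1 genes. These lists were chosen with earlier results of these data known, and they hold hair cell genes such as POU4F3 and gfi1aa. Enrichment of the lists was not tested. Of 96 tested IDs, mutants at 3 h had 11 lower and 4 higher than siblings, where 4.88% and 4.9% of all genes were. In homeostasis mutants 4 were higher, where 1.85% of all genes were. After neomycin 9 fell and 8 rose in siblings, where 10.8% and 11.2% of all genes did, and 13 fell and 3 rose in mutants, where 9.56% and 6.95% did.

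Dach proteins are transcriptional cofactors that act with Eya proteins. DACH2 (ENSDARG00000010132) averaged 99.98 ± 1.0 CPM in mutants at 3 h, against 171.8 ± 23.1 CPM in siblings at 3 h, and 298.9 ± 23.1 CPM in homeostasis mutants against 286.5 ± 25.7 CPM in homeostasis siblings (SD, n = 3 each). It fell after neomycin in mutants, with a log2 fold change of -1.58 (adjusted p = 8e-05). In siblings the fall was -0.74 (adjusted p = 0.00621), lost with only the sibling libraries in the fit (adjusted p = 0.076). It was lower in mutants at 3 h (-0.78, adjusted p = 0.011), a call lost without mutant replicate 1 or 3 at 3 h (adjusted p up to 0.054) or with only the 3 h libraries (adjusted p = 0.112). dachc moved the other way, at 41.3 ± 1.4 CPM in mutants at 3 h, against 16.2 ± 1.9 CPM in siblings at 3 h, and 15.9 ± 1.4 CPM in homeostasis mutants against 13.8 ± 1.7 CPM in homeostasis siblings. Its log2 fold change was 1.35 between genotypes at 3 h (adjusted p = 0.00078) and 1.37 after neomycin in mutants (adjusted p = 0.000287). SIX2 (ENSDARG00000058004) fell after neomycin in mutants, to 81.9 ± 8.8 CPM at 3 h against 175.5 ± 8.0 CPM in homeostasis (-1.10, adjusted p = 0.00633).

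Among other Sox and Pax genes, SOX7 and sox18, both known from blood vessel endothelium, were higher in mutants. SOX7 averaged 21.7 ± 3.3 CPM in mutants at 3 h, against 8.65 ± 3.79 CPM in siblings at 3 h, and 23.7 ± 4.2 CPM in homeostasis mutants against 4.25 ± 1.06 CPM in homeostasis siblings (SD, n = 3 each). Its log2 fold change was 2.48 in homeostasis (adjusted p = 0.00157) and 1.33 at 3 h (adjusted p = 0.0184), the second lost without mutant replicate 2 or 3 at 3 h (adjusted p up to 0.0621) or with only the 3 h libraries in the fit (adjusted p = 0.0627). sox18 was higher by 1.47 at 3 h (adjusted p = 0.00443). PAX9 averaged 5.35 ± 0.89 CPM in mutants at 3 h, against 21.7 ± 3.3 CPM in siblings at 3 h (-2.02, adjusted p = 0.00127). Erythrocyte markers were higher in mutants in both conditions, with 6 of 7 IDs called in homeostasis and 4 of 7 at 3 h, and their part in the SOX7 and sox18 values was not tested.

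Among placode and otic factors, SALL1 (ENSDARG00000075891), a zinc finger factor, averaged 292.9 ± 68.9 CPM in mutants at 3 h, against 63.8 ± 23.9 CPM in siblings at 3 h, and 58.9 ± 11.5 CPM in homeostasis mutants against 17.7 ± 5.1 CPM in homeostasis siblings (SD, n = 3 each). Its log2 fold change was 2.199 between genotypes at 3 h (adjusted p = 0.00144), 2.31 after neomycin in mutants (adjusted p = 0.000475) and 1.85 after neomycin in siblings (adjusted p = 0.0014). The other SALL1 ID (ENSDARG00000074319) was called lower after neomycin in both genotypes. Sibling libraries gave a log2 fold change of -1.72 (adjusted p = 0.00465). For mutant libraries the value was -1.40 (adjusted p = 0.0176). This mutant call did not hold without mutant replicate 2 or 3 at 3 h, or without mutant homeostasis replicate 1 or 2 (highest adjusted p = 0.0754). hmx1 (-2.92, adjusted p = 0.00235) and DLX5 (-1.97, adjusted p = 0.00654) were lower in mutants at 3 h. IRX1 (ENSDARG00000101831) was higher in homeostasis mutants, at 254.4 ± 24.8 CPM against 130.7 ± 19.1 CPM in siblings (0.96, adjusted p = 0.00994), a call lost without mutant homeostasis replicate 3 or sibling homeostasis replicate 2 (adjusted p up to 0.0583).

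Among Notch and Atoh1 genes, the hair cell genes gfi1aa and POU4F3 and the Notch ligand gene jag2b fell after neomycin in both genotypes. The log2 fold changes were -2.97 for gfi1aa (adjusted p = 0.000145), -2.47 for POU4F3 (adjusted p = 0.000272) and -1.54 for jag2b (adjusted p = 0.001) in mutants. In siblings they were -2.87 (adjusted p = 0.000116), -2.43 (adjusted p = 0.000182) and -1.70 (adjusted p = 0.000395). Of the 19 tested IDs of this list, 4 were called lower and 1 higher in siblings, where 10.8% and 11.2% of all genes were. In mutants 5 were lower and 0 higher, where 9.56% and 6.95% were. ATOH1 had a higher mean at 3 h, at 135.2 CPM against 85.7 CPM in homeostasis in mutants. In siblings the ATOH1 means were 270.3 CPM at 3 h and 115.1 CPM in homeostasis.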

How the data were processed

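RNA-seq was deposited for 12 libraries, made from total RNA of sorted cells with the SMART-Seq v4 kit, per the labels' protocols, in 4 groups of 3 named by the sample titles. The authors deposited 1 table of raw read counts per Ensembl gene, not normalized. The submitters' processing notes name bcl2fastq 2.18, STAR 2.7.3a, RSEM, Bowtie2 and danRer11, with no role or order, and the annotation release and strand setting were not given in the sources used here. Entries that name no gene, 4 in all and 28.2% to 35.2% of reads, entered neither library sizes nor tests. Multimapping reads are among them, so near-identical paralogs may be undercounted, and the kit does not mark strand, so overlapping genes cannot be separated. The design text speaks of biological triplicates, without naming separate clutches, so a p-value reflects only how far these libraries scatter, which may be technical.

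Names came from a table that matched 29201 of the IDs. A RefSeq gene table of another assembly (GRCz12tu) was to decide which paralog an ID is, but it pairs no Ensembl IDs, and it served only for overlaps of genes by name. No sequences are shown. Part of the chosen set is not reported here. The 8 factors, the wider lists and the marker lists were chosen with earlier results of these data known.

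With edgeR 4.0.16 in R 4.3.3, genes were filtered by filterByExpr, scaled by TMM and fitted with 1 mean per group over the 12 libraries. The two-sided quasi-likelihood test was adjusted by Benjamini-Hochberg for 22000 genes. CPM are counts per 1000000 of the scaled library size, and standard errors were taken from fold changes and F statistics. The log2 CPM used for patterns and correlations between libraries had a prior count of 2. Fold changes came from the fit with the default prior count of edgeR. The fit was tested on simulated data. Alternatives were DESeq2 1.42.0, other scalings, no filter, only the groups compared, the replicate number as a block (over all libraries, or within the 3 h libraries, where deviations of same-numbered mutant and sibling libraries correlated at 0.192 to 0.46) and leaving out each library. Named outside the set were up to 3 called genes per wider list and comparison with the smallest adjusted p, some of them left unnamed, and the 3 closest patterns per called ID. The search for patterns left out tested genes without a symbol. It also left out symbols that begin with si:, zgc:, LOC, CABZ, CU, BX, CR, FP, im:, wu: or ENSDARG, which can drop ordinary gene names too. Libraries of a group were compared by chi-square over genes, and all pairs differed beyond counting noise. CPM floors cover counting error only.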

Additional observations from a re-analysis of the deposited data

How the results depend on the processing

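The calls of the PAX2 IDs and SOX4 (…04588) after neomycin, and of PAX2 (…28148) in homeostasis, held under the other scalings, no filter, DESeq2, the block and every left-out library. The median of all genes moved by at most 0.08 (log2) under another scaling, by -0.11 in the sibling response without sibling replicate 1 at 3 h, and by 0.11 between genotypes at 3 h and 0.13 in the difference of responses without sibling replicate 2. At this depth the ID named sox4a was not detectable, which says nothing of the SOX4 IDs. The cause of the changes below was not tested.

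With size factors by median of ratios, fold changes that changed sign were those of EYA1 in homeostasis (-0.022) and after neomycin in mutants (0.012), and of SOX11 (…95743) at 3 h (0.027). With total counts these were SOX3 in homeostasis (0.071) and SOX11 (…95743) at 3 h (0.049), and with no filter EYA1 in homeostasis (-0.0092) and SOX11 (…95743) at 3 h (0.047). With DESeq2 they were EYA1 in homeostasis (-0.022) and after neomycin in mutants (0.012), and SOX11 (…95743) at 3 h (0.027), and with only the groups compared SOX11 (…95743) at 3 h (0.061).

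Counting the further IDs too, 2 were called at 3 h. Total counts called 7 genes for the difference of responses. DESeq2 called 1827 genes in homeostasis, 3571 at 3 h and 374 for the difference. With only the groups compared, 2217 genes were called in homeostasis (885 higher, 1332 lower, against 407 and 378 in the fit of all groups), 625 at 3 h (447 higher, 178 lower, against 1077 and 1074) with 0 of the 8, 2287 in the sibling response (863 higher, 1424 lower, against 2464 and 2367) and 6150 in the mutant response with 5 of the 8. In homeostasis, total counts gave 440 higher and 287 lower.

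Leaving out each library in turn gave 295 to 2079 genes in homeostasis with 1 to 4 of the 8, 896 to 2964 at 3 h with 0 to 1, 3060 to 5367 in the sibling response, 2174 to 6147 in the mutant response with 2 to 5, and 3 to 190 for the difference with 0 to 1. The counts of 2079, 2964, 6147 and 190 genes, and of 4 of the 8 in homeostasis, 5 in the mutant response and 1 for the difference are those without sibling replicate 2 at 3 h. Log2 fold changes that crossed 0 ranged in homeostasis from -0.080 to 0.26 for SOX2, from -0.34 to 0.26 for SOX3 and from -0.047 to 0.062 for EYA1. At 3 h they ranged from -0.096 to 0.11 for SOX11 (…95743) and from -0.57 to 0.55 for sox21a. In the sibling response they ranged from -0.40 to 0.11 for SOX2 and from -0.91 to 0.15 for SOX3. For the difference they ranged from -0.62 to 0.52 for sox21a and from -0.29 to 0.096 for SOX4 (…98834).

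Deviations from the group mean correlated between libraries of the same replicate number at -0.0586 to 0.46 over 18 pairs, with 9 over 0.1, and all over 0.1 only between mutants and siblings at 3 h among the pairs of groups, where the numbers were taken as pairs. With the block within the 3 h libraries, 4112 genes were called at 3 h. With the replicate number as a block over all libraries, 1210 genes were called in homeostasis, and 2789 genes with 2 of the 8 at 3 h. SOX3 in homeostasis changed sign (0.073). The block lost no call and added 6, among them SOX11 (…77811) in homeostasis (adjusted p = 0.0108), at 3 h (0.0442) and in the sibling response (0.0272).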
